A study of Mus musculus with 7 samples.

Results

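Angiogenic growth factors were followed in retinal microglia (rMG), the resident immune cells of the retina, in a mouse model of choroidal neovascularisation. The set held 10 genes, chosen by name from the 40743 genes of the deposited table: the ligands Vegfa, Vegfb, Pgf, Pdgfa, Pdgfb, Pdgfc, Igf1 and Fgf2, the hypoxia-responsive transcription factor subunit Hif1a, and the co-receptor Nrp1. RNA-seq values were analysed from 7 libraries, 3 from unlasered mice and 4 from mice at 7 days after laser burns, set at 3 to 6 spots per eye, which break the membrane under the retina and lead vessels to grow in from the choroid. All 7 libraries were labelled Irf8 KO, and the mice carried Irf8-/- and Cx3cr1GFP/+ alleles on a C57BL/6J background without the Crb1 mutation. Cells were sorted as CD45low CD11b+ Cx3cr1GFP/+ Ly6C- Ly6G-, and every library pooled about 10000 cells from 3 to 4 mice. For lasered mice only the central 70% of the retina was used, so effects of laser injury and of retinal region cannot be told apart. Wild type libraries were not analysed here.

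New vessels form when endothelial cells answer growth factors made by their neighbours. VEGF ligands act on the endothelial receptors FLT1 and KDR with neuropilins as co-receptors, PDGF ligands recruit pericytes and act on mesenchymal cells, and FGF2 and IGF1 drive growth and survival of several cell types. Under low oxygen, HIF alpha subunits escape degradation and switch on genes such as Vegfa. Microglia reach the laser lesion early and are studied as a source of such factors.

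Total counted reads ranged from 20427558 to 36022954 in unlasered libraries and from 37133297 to 45919042 in lasered libraries. Values are read counts scaled to the library total (CPM). A level of 3 reads, taken as the floor, lay between 0.0653 and 0.147 CPM, and covers counting error only. The microglia markers summed to 26488 to 31343 CPM in unlasered and 24960 to 32185 CPM in lasered libraries (10 genes, exact permutation test, two-sided, p = 0.743), with Csf1r the highest over all 7 libraries. Irf8 itself was read at 463 to 582 CPM in all 7 libraries, listed only together with the overlapping Gm20388. The level of the targeted gene could therefore not check the label, as values per gene do not show which exons were read. The groups are named as the libraries labelled Irf8 KO. Markers of rods were higher in every unlasered library than in any lasered one, and their values stand beside Vegfa. Nothing says that the pools of mice were independent cultures or litters, so p-values measure the spread between these libraries, which may be technical.

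Of the 10 genes, 9 reached 1 CPM in at least 3 libraries and were tested, and 0 passed an adjusted p of 0.05 in either direction (limma on log2(CPM + 1), Benjamini-Hochberg over 17496 genes). Among all tested genes, 6.93% passed. At an unadjusted p under 0.05 there was 1 of 9, Vegfa, beside 22.7% of all tested genes. The same gene was the only one of the 9 whose groups did not overlap, beside 21.0% of all tested genes. On the recovered reads 0 of the 9 were higher and 1 was lower, again Vegfa, in edgeR, beside 7.33% of all genes (3.78% higher, 3.55% lower). DESeq2 likewise gave 0 higher and Vegfa lower, beside 13.3% of all genes (6.73% higher, 6.53% lower). The fitted differences ran from -1.27 for Vegfa to 0.23 for Igf1 on the log2 scale, with a median of -0.16 over the 9 genes and -0.01 over all tested genes. As these are mixtures of sorted cells, fewer cells of a type and less RNA per cell cannot be told apart in any of these values.

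**Figure D1:**
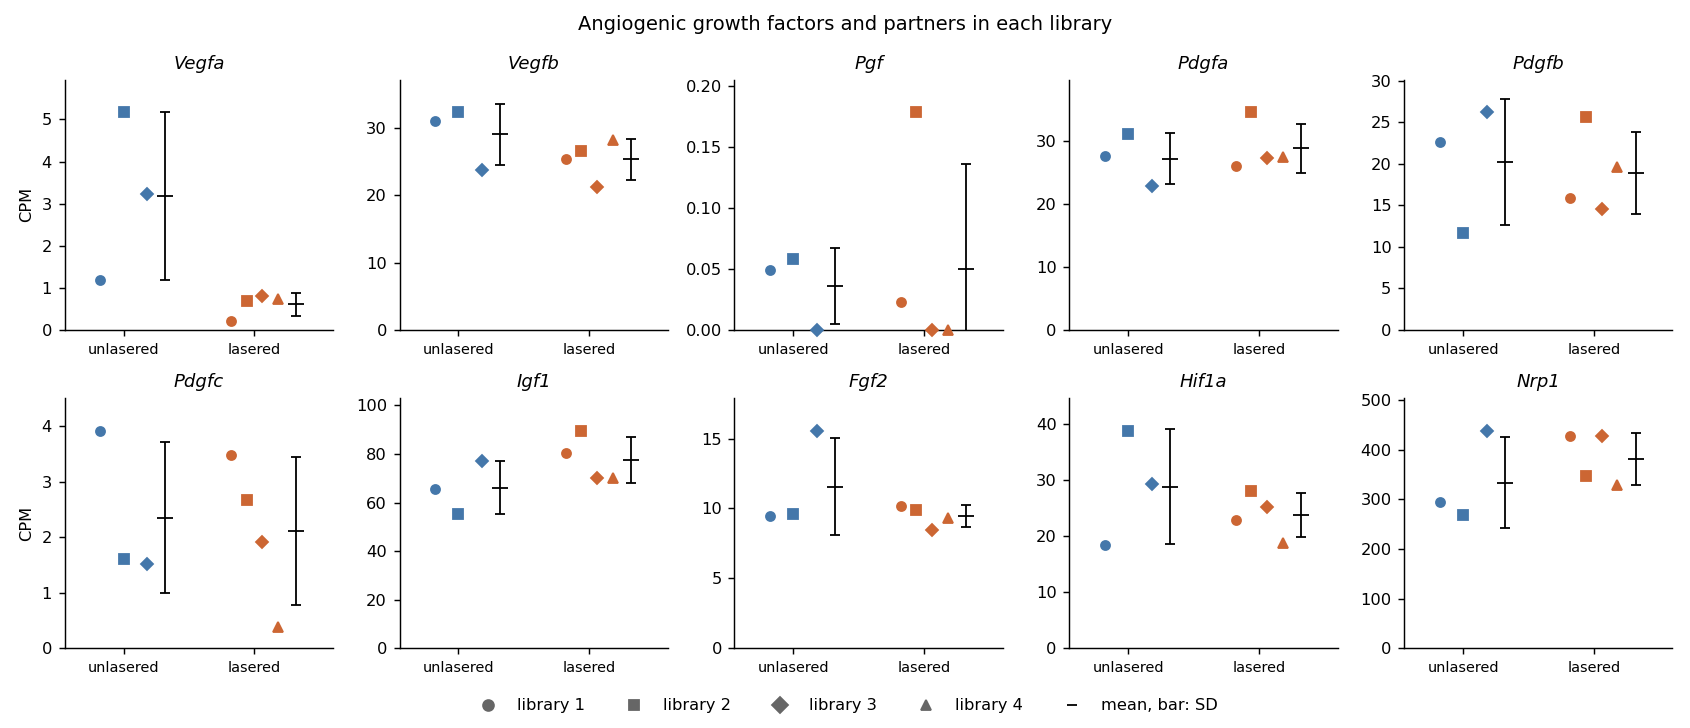
CPM of each of the 10 genes (vertical axes, one scale per panel, from 0) in the 3 unlasered and 4 lasered libraries; symbols are single libraries, and the black mark and bar give the mean and SD, the bar being clipped at 0. Only the Vegfa panel among the 9 tested genes shows groups that do not overlap, with unlasered libraries between 1.17 and 5.17 CPM and lasered libraries between 0.204 and 0.806 CPM.

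Vegfa (ENSMUSG00000023951, protein-coding, GRCm38 chr17:46016993-46032369, minus strand) encodes the main ligand that drives vessel sprouting. Its level was 1.17, 5.17 and 3.22 CPM in unlasered libraries 1, 2 and 3, from 24, 177 and 116 reads. In lasered libraries 1 to 4 it was 0.204, 0.690, 0.806 and 0.727 CPM, from 9, 31, 37 and 27 reads. Every unlasered library was above every lasered one, and the unlasered libraries were spread over a wide range. The means were 3.19 ± 2.0 CPM (SD, n = 3) and 0.607 ± 0.273 CPM (SD, n = 4), so the unlasered mean was 5.25 times the lasered one. On the log2(CPM + 1) scale, which understates the change of low genes, the difference was -1.27 (SE 0.34, 95% interval -2.04 to -0.51) with an adjusted p of 0.0579 in limma. In edgeR the log2 difference was -2.38 with an adjusted p of 0.0422, and in DESeq2 it was -2.39 with an adjusted p of 0.00416. Vegfa reached 1 CPM in the 3 unlasered libraries only and so entered the test through them. A gene that enters this way has to differ, and of the 210 such genes 52.9% passed in limma. With the genes tested held fixed (a setting added once the values were known), the difference was -0.93 (adjusted p = 0.136) without unlasered library 2 and -1.68 (adjusted p = 0.0164) without unlasered library 1.

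Rod markers moved with Vegfa. The 15 rod genes together reached 2251 CPM in unlasered library 1, 20191 CPM in library 2 and 5780 CPM in library 3. The lasered libraries 1 to 4 had sums of 1019.7, 449, 821 and 321 CPM (exact permutation test, two-sided, p = 0.0571, the smallest that 3 against 4 libraries can give). All 15 were above the floor in every library and 14 of 15 were lower in limma, and 15 in edgeR and DESeq2. The order of the unlasered libraries, 2 above 3 above 1, was the same for Vegfa and for the rod sum. In the lasered libraries it was not, as library 1 had the highest rod sum and the lowest Vegfa. The part of rod RNA in the Vegfa values was not tested. Other lists are given for the same reason. Their highest genes are named over all 7 libraries, and in some lists another gene leads within a group. Markers of Müller glia and astrocytes, led by Slc1a3, summed to 430 to 783 CPM unlasered and 171 to 482 CPM lasered (9 genes, exact p = 0.114). Of 7 tested genes 1 passed in limma, Gfap, which was higher in lasered libraries (2.18 to 3.87 CPM, against 0 to 1.53 CPM unlasered, adjusted p = 0.0311) and was not called by edgeR (adjusted p = 0.221) or DESeq2 (adjusted p = 0.405). Gfap reached 1 CPM in 4 lasered libraries and 1 unlasered library, so it entered the test through the group where it was high. Endothelial markers, led by Pecam1, summed to 44.1 to 81.8 and 30.9 to 38.9 CPM (12 genes, exact p = 0.0571), with Cldn5 at or under the floor throughout. Of 5 tested 1 passed in limma, edgeR and DESeq2, Egfl7, which was lower in lasered libraries (6.14 to 11.4 CPM, against 18.2 to 28.7 CPM unlasered, adjusted p = 0.0116 in limma). Egfl7 had the highest mean of the list in unlasered libraries (24.3 CPM), and the Pecam1 groups overlapped. As a mean of log2(CPM + 1), which weighs the genes alike, the endothelial list gave an exact permutation p of 0.114. Retinal pigment epithelium markers, led by Rlbp1, which the Müller list also holds, summed to 53.3 to 71.7 and 48.1 to 56.4 CPM (10 genes, exact p = 0.343; 0 of 5 passed in limma, edgeR or DESeq2, and 1 at an unadjusted p under 0.05 in limma), with Lrat at or under the floor throughout. Neuron markers, led by Prkca, summed to 36.6 to 70.2 and 49.0 to 68.9 CPM (12 genes, exact p = 0.743; 0 of 6 passed in limma or edgeR, and 1 at an unadjusted p under 0.05 in limma). DESeq2 called 1 of them lower, Slc6a9, at 1.66 to 11.7 CPM unlasered and 0 to 1.45 CPM lasered (adjusted p = 0.0110). Slc6a9 reached 1 CPM in 3 unlasered libraries and 1 lasered library, so it too entered through the group where it was high.

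Vegfb (chr19:6982473-6987651, minus strand, protein-coding) encodes a ligand of FLT1 with weak effect on sprouting. It was read at 31.0, 32.4 and 23.8 CPM in unlasered libraries 1, 2 and 3 and at 25.4, 26.7, 21.2 and 28.2 CPM in lasered libraries 1 to 4. The groups overlapped, with library 3 the lowest in both. The difference was -0.18 on the log2(CPM + 1) scale (SE 0.17, 95% interval -0.56 to 0.20, adjusted p = 0.572 in limma). Per kb of exons, Vegfb was read at 16.7 to 70.5 times the level of Vegfa in unlasered libraries and at 70.2 to 333 times in lasered libraries. These ranges touch, since unlasered library 1 had a ratio of 70.5 and lasered library 3 one of 70.2.

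Pgf (chr12:85166635-85177790, minus strand, protein-coding), placenta growth factor, also binds FLT1. It had 1, 2 and 0 reads in unlasered libraries 1, 2 and 3 and 1, 8, 0 and 0 reads in lasered libraries 1 to 4. Only lasered library 2, at 0.178 CPM, was above the floor, so Pgf was not tested and a difference was not detectable at this depth.

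The promoter letters of Vegfa and Vegfb are shown because the 2 ligands differ in level and because hypoxia factors act through short motifs near start sites. The windows are the 250 bases before the RefSeq start site (GRCm38.p6), 5′ to 3′ on the strand of the gene. Capitals mark the core of the hypoxia response element, searched as ACGTG and GCGTG on both strands (CACGT and CACGC on the other strand), with overlapping matches counted.
Vegfa (chr17:46032378-46032627, minus strand): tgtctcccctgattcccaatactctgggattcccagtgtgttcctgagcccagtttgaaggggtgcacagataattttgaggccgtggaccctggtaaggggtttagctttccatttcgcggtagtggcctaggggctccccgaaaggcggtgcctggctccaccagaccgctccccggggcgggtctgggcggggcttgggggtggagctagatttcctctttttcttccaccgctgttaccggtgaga
Vegfb (chr19:6987652-6987901, minus strand): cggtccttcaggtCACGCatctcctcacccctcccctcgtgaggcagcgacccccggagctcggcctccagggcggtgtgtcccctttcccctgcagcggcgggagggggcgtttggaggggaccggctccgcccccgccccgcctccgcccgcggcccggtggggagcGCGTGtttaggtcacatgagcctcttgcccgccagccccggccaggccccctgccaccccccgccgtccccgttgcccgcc
The Vegfa window held 0 matches, and the Vegfb window held 2, at 237 and 81 bases before the start site. A second Vegfa start site, inside the gene, had matches at 218 and 211 bases before it. Of the 10 genes, 9 had at least 1 window, and for 8 of these a window held a match. These 9 genes had 12 windows, of which 8 held a match. Hif1a had 3 matches in its window, at 135, 134 and 70 bases before its start site. The first pair overlap in 1 stretch, CACGTG, which reads the same on both strands. Among all 32851 windows of this length in the table, 38.6% held a match. A match describes letters and is not a measured binding site, and a window without one says only that these letters are absent from it. Sequence outside the windows, farther before the start site or inside the gene, was not searched.

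The PDGF ligands gave overlapping groups. Pdgfa (chr5:138976014-138997370, minus strand, protein-coding) was at 27.7, 31.2 and 23.0 CPM in unlasered libraries 1, 2 and 3 and at 26.1, 34.6, 27.4 and 27.5 CPM in lasered libraries 1 to 4. The groups overlapped, and the difference was 0.08 (SE 0.17, 95% interval -0.29 to 0.46, adjusted p = 0.813 in limma, log2 scale). Exons of 6330403L08Rik lie on the other strand and were read at 0.458 to 3.05 CPM. Pdgfb (chr15:79995874-80014977, minus strand, protein-coding), the ligand that draws pericytes to new vessels, was at 22.7, 11.7 and 26.2 CPM unlasered and at 15.9, 25.6, 14.6 and 19.6 CPM lasered. Unlasered library 2 was the lowest of all 7. The difference was -0.05 (SE 0.29, 95% interval -0.70 to 0.61, adjusted p = 0.941 in limma). Pdgfc (chr3:81036416-81214040, plus strand, protein-coding), a ligand cleaved outside the cell before it acts, was at 3.92, 1.61 and 1.53 CPM unlasered and at 3.49, 2.67, 1.92 and 0.377 CPM lasered. Lasered library 4, with 14 reads, was the lowest of all 7, and unlasered library 1 the highest. The difference was -0.16 (SE 0.41, 95% interval -1.09 to 0.77, adjusted p = 0.858 in limma). Summed over Pdgfa, Pdgfb and Pdgfc the level was 49.8 ± 4.93 CPM (SD, n = 3) unlasered and 49.9 ± 8.76 CPM (SD, n = 4) lasered. The signs of the Pdgfa, Pdgfb and Pdgfc differences each turned when a single library was left out, and that of Pdgfb also with median-of-ratios scaling (0.03).

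Igf1 (chr10:87858265-87937042, plus strand, protein-coding), a survival factor that microglia are known to make, was the most highly read ligand in CPM. It was at 65.6, 55.3 and 77.1 CPM in unlasered libraries 1, 2 and 3 and at 80.3, 89.5, 69.9 and 70.3 CPM in lasered libraries 1 to 4. Lasered libraries 1 and 2 were above all unlasered ones, while lasered libraries 3 and 4 were below unlasered library 3. The difference was 0.23 (SE 0.16, 95% interval -0.12 to 0.59, adjusted p = 0.427 in limma), and its sign held in all 14 alternatives tried.

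Fgf2 (chr3:37348346-37410108, plus strand, protein-coding) encodes a growth factor for endothelial cells and fibroblasts. It was at 9.50, 9.58 and 15.5 CPM unlasered and at 10.2, 9.89, 8.43 and 9.29 CPM lasered. Unlasered library 3 stood above the other 6 libraries, which lay between 8.43 and 10.2 CPM. The difference was -0.23 (SE 0.21, 95% interval -0.70 to 0.23, adjusted p = 0.560 in limma) and went to -0.02 without unlasered library 3. Part of the Fgf2 reads were listed jointly with Gm43439. Nudt6, whose exons overlap Fgf2 on the other strand, was read at 0.809 to 1.23 times its level, and the kit does not mark strand. Both genes summed gave a difference of -0.33 (adjusted p = 0.344 in limma).

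Nrp1 (chr8:128358604-128503363, plus strand, protein-coding), the co-receptor for VEGF and for class 3 semaphorins, had the highest level of the set. It was at 295, 268 and 438 CPM in unlasered libraries 1, 2 and 3 and at 427, 347, 427 and 328 CPM in lasered libraries 1 to 4. It ranked 372 among all genes in the unlasered and 319 in the lasered group by mean CPM. The groups overlapped, unlasered library 3 being the highest of all 7, and the difference was 0.22 (SE 0.19, 95% interval -0.20 to 0.64, adjusted p = 0.541 in limma). A part of the reads was listed jointly with Mir1903. Without unlasered library 3 the difference was 0.43 (adjusted p = 0.0994).

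Hif1a (chr12:73901375-73947530, plus strand, protein-coding) encodes an oxygen-labile subunit of the hypoxia factor, whose activity is set mainly through protein stability. It was at 18.5, 38.8 and 29.4 CPM unlasered and at 23.0, 28.1, 25.2 and 18.8 CPM lasered. The unlasered libraries spread from the lowest to the highest of all 7, in the order 2, 3, 1 also seen for Vegfa and the rod sum. In lasered libraries the orders differed, the rod sum being highest in library 1 and Hif1a in library 2. The difference was -0.23 (SE 0.25, 95% interval -0.78 to 0.33, adjusted p = 0.648 in limma) and 0.01 without unlasered library 2. Gm15283, a gene on the other strand whose exons overlap Hif1a, was read at 56.0, 127 and 98.2 CPM unlasered and at 75.8, 86.5, 77.4 and 56.4 CPM lasered. That is 3.00 to 3.34 times Hif1a in every library, and reads of the pair cannot be told apart in a kit that does not mark strand. Summed, the pair was at 122 ± 45.7 CPM (SD, n = 3) unlasered and 97.8 ± 16.5 CPM (SD, n = 4) lasered, a difference of -0.26 (adjusted p = 0.600 in limma).

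**Figure D2:**
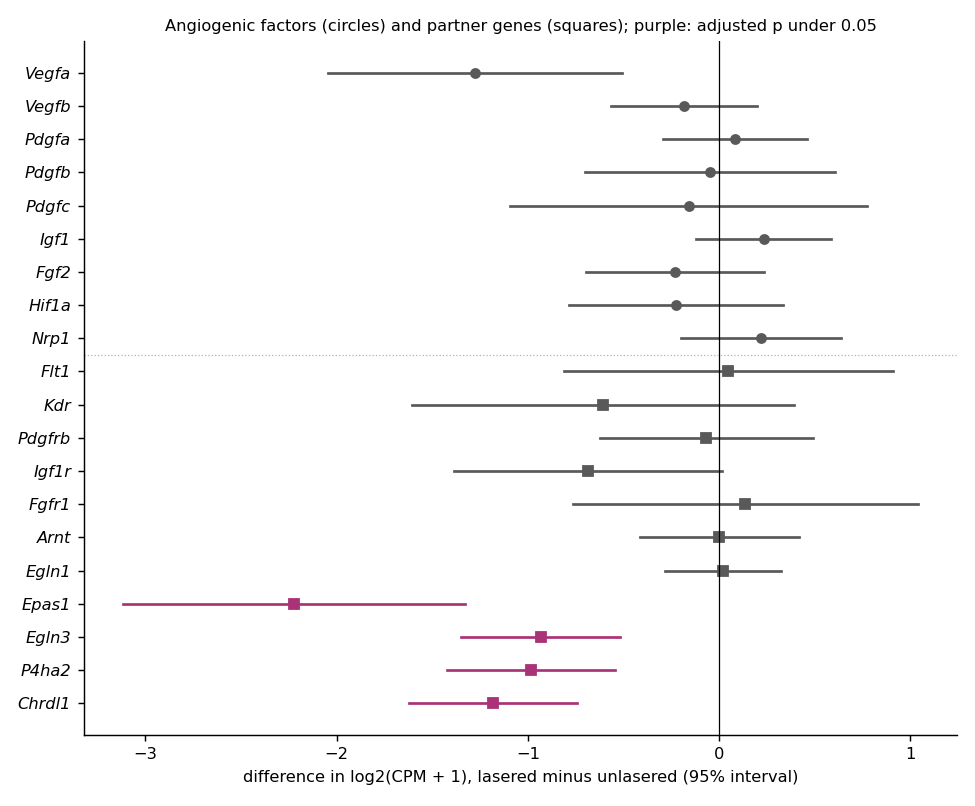
Difference in log2(CPM + 1), lasered minus unlasered, with its 95% interval (horizontal axis) for the 9 tested angiogenic factors (circles) and 11 partner genes (squares); purple marks an adjusted p under 0.05 in limma. Vegfa lies at -1.27 with an interval that excludes 0 and an adjusted p of 0.0579, and the 4 purple genes, Epas1, Egln3, P4ha2 and Chrdl1, lie between -2.22 and -0.93.

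Levels of different genes were compared per kb of exons. In unlasered libraries the order of the means was Nrp1 at 34.1, Vegfb at 18.1, Pdgfa at 8.75, Igf1 at 6.67, Hif1a at 4.90, Pdgfb at 4.85, Fgf2 at 1.70, Vegfa at 0.744, Pdgfc at 0.462 and Pgf at 0.0123 CPM per kb. Neighbours whose libraries overlapped in range were Pdgfa and Igf1, Igf1 and Hif1a, Hif1a and Pdgfb, and Vegfa and Pdgfc. In lasered libraries the order was Nrp1 at 39.1, Vegfb at 15.8, Pdgfa at 9.27, Igf1 at 7.82, Pdgfb at 4.54, Hif1a at 4.03, Fgf2 at 1.39, Pdgfc at 0.415, Vegfa at 0.142 and Pgf at 0.0173 CPM per kb. Here Pdgfa and Igf1, Pdgfb and Hif1a, Pdgfc and Vegfa, and Vegfa and Pgf overlapped. The first 4 places and those of Fgf2 and Pgf were the same in both groups, and Vegfa and Pdgfc, like Hif1a and Pdgfb, stood in the other order.

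**Figure D3:**
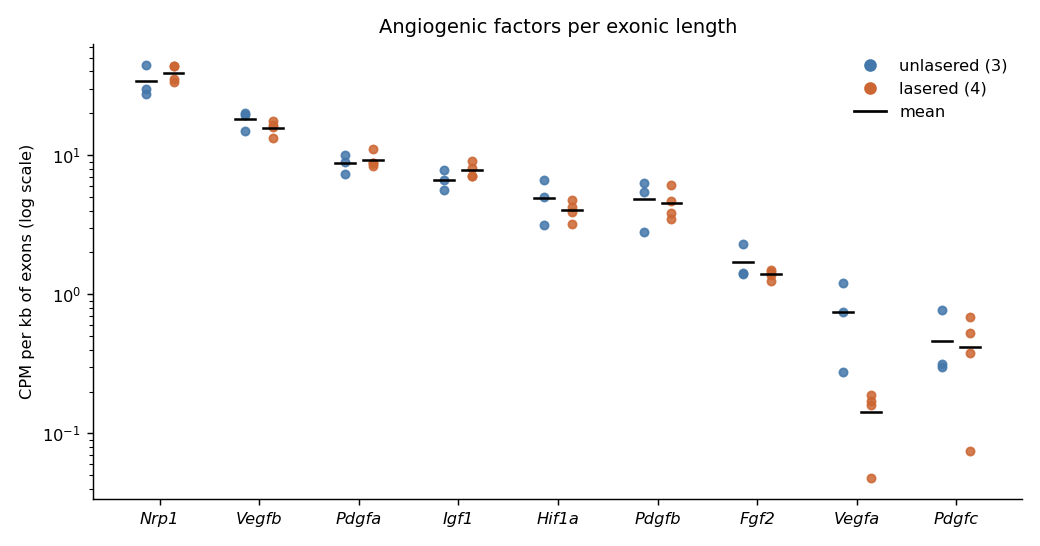
CPM per kb of exons on a log axis for 9 genes, ordered by the unlasered mean; points are single libraries (3 unlasered, 4 lasered) and black lines are means. Pgf is left out because several libraries had 0 reads; Nrp1 is the highest in both groups, and Vegfa is at 0.744 in the unlasered and 0.142 in the lasered group.

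The receptors and other pathway genes were taken from lists of 80 genes, of which 54 were tested. In limma 0 were higher and 4 were lower after laser injury, beside 3.86% higher and 3.07% lower among all tested genes. In edgeR there were likewise 0 higher and 4 lower, and in DESeq2 1 higher and 5 lower, beside the shares of all genes given above for each. At an unadjusted p under 0.05 in limma there were 7 higher and 10 lower of 54, beside 11.0% higher and 11.6% lower among all tested genes. Groups did not overlap for 3 genes that were higher and 6 that were lower, beside 10.4% and 10.7% of all tested genes. The median difference was 0.01 over the 54 genes and -0.01 over all genes.

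The VEGF receptors gave overlapping groups. Flt1, the shared receptor of VEGFA, VEGFB and PGF, was at 2.74, 2.77 and 8.63 CPM unlasered and at 4.46, 6.55, 4.53 and 2.50 CPM lasered, with a difference of 0.05 (95% interval -0.81 to 0.91, adjusted p = 0.957 in limma). Kdr, the main signalling receptor of VEGFA, was at 4.41, 2.72 and 11.7 CPM unlasered and at 2.51, 2.47, 6.55 and 2.29 CPM lasered, with a difference of -0.61 (95% interval -1.60 to 0.39, adjusted p = 0.467 in limma). For both, unlasered library 3 was the highest of all 7. The list of 6 VEGF ligands and receptors, which holds Flt1 and Kdr, had 4 genes tested, and 0 passed in limma, edgeR or DESeq2 (1 at an unadjusted p under 0.05 in limma). Flt1 and Kdr are also among the endothelial markers given above.

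Of the PDGF receptors, Pdgfra was at 0.333 to 1.52 CPM unlasered and 0.0436 to 0.838 CPM lasered and was not tested. Pdgfrb was at 1.27, 0.818 and 1.42 CPM unlasered and at 0.906, 1.00, 0.588 and 1.94 CPM lasered, with a difference of -0.07 (95% interval -0.62 to 0.49, adjusted p = 0.906 in limma). The ranges overlapped for both receptors. Markers of pericytes and fibroblasts, a list that holds Pdgfrb, summed to 3.15 to 8.49 CPM unlasered and 23.1 to 42.2 CPM lasered (11 genes, exact p = 0.0571; 1 of 3 tested genes passed in limma, edgeR and DESeq2). That sum rested on its highest gene, Cspg4, at 0.613 to 4.14 CPM unlasered and 20.0 to 37.1 CPM lasered. Cspg4 reached 1 CPM in 2 unlasered and 4 lasered libraries. Col1a1, Col1a2 and Dcn, under 1 CPM in every library, went the other way, with groups that did not overlap. Kcnj8 and Lum did not pass the floor in any library. As a mean of log2(CPM + 1), the list gave an exact permutation p of 0.229.

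The IGF list had 4 of 11 genes tested, and 0 passed in limma, edgeR or DESeq2 (2 at an unadjusted p under 0.05 in limma). Igf1r, the receptor of IGF1, was at 9.50, 12 and 12.4 CPM unlasered and at 9.88, 9.89, 4.27 and 4.36 CPM lasered, with a difference of -0.69 (95% interval -1.39 to 0.01, adjusted p = 0.229 in limma). Lasered libraries 3 and 4 were below the other 5. The FGF list had 5 of 8 genes tested, and 0 passed in limma, edgeR or DESeq2 (0 at an unadjusted p under 0.05 in limma). Fgfr1, a receptor of FGF2, was at 1.08, 1.46 and 1.05 CPM unlasered and at 3.51, 1.92, 1.20 and 0.162 CPM lasered, so the lasered libraries held both the highest and the lowest value. Its difference was 0.14 (95% interval -0.76 to 1.04, adjusted p = 0.877 in limma). Fgfr2, of the same list, was read far more, at 450 to 495 CPM unlasered and 494 to 899 CPM lasered. The Fgfr2 groups overlapped (adjusted p = 0.249 in limma).

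Genes of the HIF machinery and its targets held 3 of the 4 that passed. Epas1 (chr17:86753700-86833410, plus strand, protein-coding), which encodes HIF2 alpha and is known for its level in endothelial cells, was at 5.38, 14.6 and 6.47 CPM in unlasered libraries 1, 2 and 3 and at 1.65, 0.958, 1.55 and 0.0808 CPM in lasered libraries 1 to 4. The groups did not overlap, and lasered library 4 had 3 reads. Epas1 reached 1 CPM in 3 unlasered and 2 lasered libraries, so it needed the unlasered ones to enter the test. It fell by 2.22 on the log2 scale (SE 0.40, adjusted p = 0.0165 in limma), and the adjusted p was 0.0557 without lasered library 2. Egln3 (chr12:54178981-54203860, minus strand, protein-coding), a prolyl hydroxylase that marks HIF alpha subunits for degradation and is itself induced by hypoxia, was at 11.7, 15.4 and 15.3 CPM unlasered and at 5.64, 7.59, 6.84 and 7.62 CPM lasered. Every unlasered library was above every lasered one. Egln3 fell by 0.93 (SE 0.18, adjusted p = 0.0234 in limma). P4ha2 (chr11:54100095-54131665, plus strand, protein-coding), a collagen prolyl hydroxylase subunit induced by hypoxia, was at 4.21, 3.77 and 5.69 CPM unlasered and at 1.63, 1.94, 1.66 and 1.91 CPM lasered, again without overlap. It fell by 0.98 (SE 0.19, adjusted p = 0.0231 in limma). Epas1 ranked the libraries as the rod sum did in both groups, 2 above 3 above 1 unlasered and 1, 3, 2, 4 lasered. Among unlasered libraries P4ha2 was lowest in library 2. Lasered library 1 had the highest rod sum and the lowest Egln3 and P4ha2 of the lasered libraries. Egln3 was nearly level in unlasered libraries 2 and 3, at 15.4 and 15.3 CPM, where the rod sums were 20191 and 5780 CPM. The part of rod RNA in the values of these 3 genes was not tested. The Epas1 and Egln3 differences were -1.83 (adjusted p = 0.0366) and -0.87 (adjusted p = 0.0614) without unlasered library 2, and that of P4ha2 was -1.09 (adjusted p = 0.0337), all in limma. Without lasered library 1, 2 or 3 the limma adjusted p was 0.0618 to 0.0711 for Egln3 and 0.0643 to 0.0714 for P4ha2.

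The promoters of the 2 hydroxylases are shown for comparison with those of Vegfa and Vegfb because their RNA was lower in the same lasered libraries, with the same windows, strand rule and capitals.
Egln3 (chr12:54203875-54204124, minus strand): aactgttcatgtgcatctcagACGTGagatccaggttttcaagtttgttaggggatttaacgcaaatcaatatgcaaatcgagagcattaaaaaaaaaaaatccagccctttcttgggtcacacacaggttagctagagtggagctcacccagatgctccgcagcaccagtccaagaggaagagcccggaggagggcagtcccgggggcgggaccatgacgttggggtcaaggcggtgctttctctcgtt
P4ha2 (chr11:54100674-54100923, plus strand): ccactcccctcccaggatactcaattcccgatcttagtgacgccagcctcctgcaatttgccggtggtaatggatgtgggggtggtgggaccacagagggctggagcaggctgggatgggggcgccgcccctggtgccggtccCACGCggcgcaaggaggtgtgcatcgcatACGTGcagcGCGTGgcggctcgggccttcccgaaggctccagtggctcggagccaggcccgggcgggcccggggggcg
Egln3 held 1 match, at 229 bases before its start site, and P4ha2 held 3, at 107, 78 and 69 bases. The printed Vegfa window held 0.

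**Figure D4:**
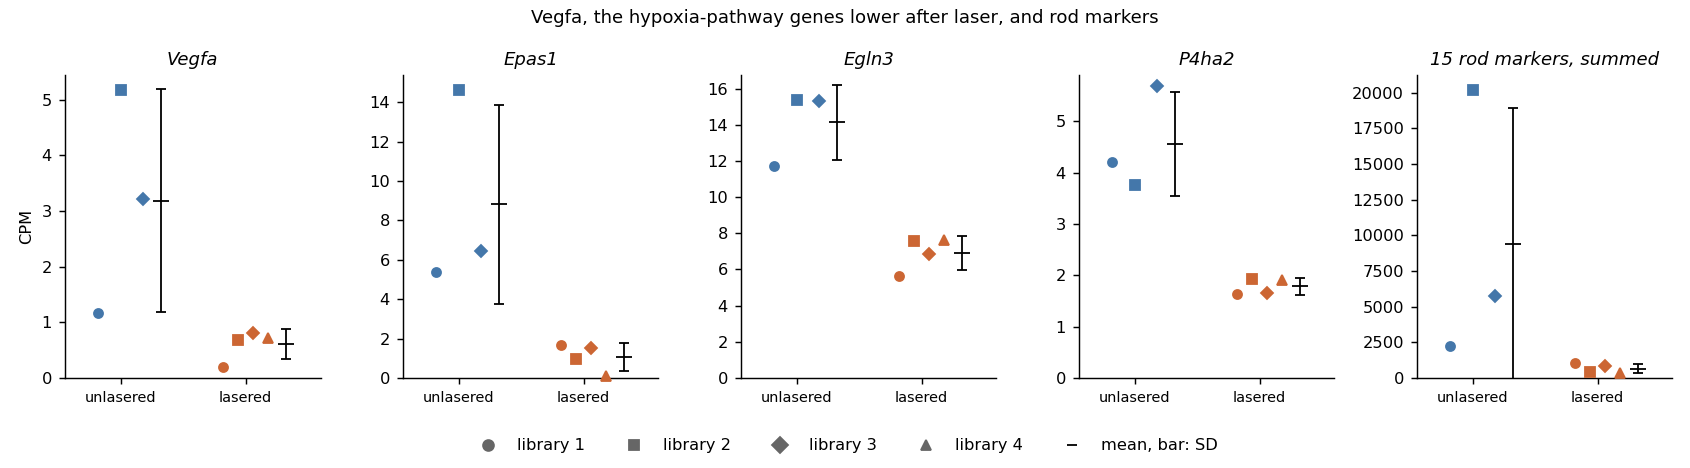
CPM of Vegfa, of the 3 hypoxia-pathway genes that were lower after laser injury (Epas1, Egln3, P4ha2), and of 15 rod markers summed (vertical axes from 0), in 3 unlasered and 4 lasered libraries; symbols are libraries, and the black mark and bar give the mean and SD, clipped at 0. All 5 panels show unlasered libraries above lasered ones. Unlasered library 2 is the highest for Vegfa, Epas1 and the rod sum, nearly level with library 3 for Egln3 (15.4 and 15.3 CPM), and the lowest unlasered library for P4ha2.

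The other HIF genes named gave overlapping groups. Arnt, the stable partner of the HIF alpha subunits, was at 53.9 to 85.1 CPM unlasered and 58.8 to 79.0 CPM lasered (difference 0.00, 95% interval -0.41 to 0.42, adjusted p = 0.997 in limma). Egln1, the main oxygen sensor of the pathway, was at 60.0 to 66.6 CPM unlasered and 60.7 to 77.0 CPM lasered (difference 0.02, 95% interval -0.28 to 0.33, adjusted p = 0.945 in limma). Of 9 HIF subunits and oxygen sensors 8 were tested, and in limma 0 were higher and 2 were lower, Epas1 and Egln3, against the 3.07% of all genes that were lower. Of 14 hypoxia-inducible targets, a list that also holds Egln3, 13 were tested, and in limma 0 were higher and 2 were lower, Egln3 and P4ha2. For the 13 targets 10 fitted differences (76.9%) were below 0, as were 51.6% over all genes, and their median was -0.19 beside -0.01 over all genes.

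Of the remaining lists, semaphorins and plexins, the ligands and receptors that share NRP1 with VEGF, had 7 of 12 genes tested, and 0 passed in limma, edgeR or DESeq2 (2 at an unadjusted p under 0.05 in limma). Angiopoietins and TIE receptors, a list that also holds angiopoietin-like genes such as Angptl4, had 3 of 7 tested. Angptl4 was not on the list of hypoxia-inducible targets. In limma and edgeR 0 of the 3 passed (2 at an unadjusted p under 0.05 in limma). DESeq2 called 2 of the 3, Angpt1 lower (adjusted p = 0.0331) and Angptl4 higher (adjusted p = 0.0458). Angpt1 was at 1.08 to 3.92 CPM unlasered and 0.350 to 0.793 CPM lasered, and Angptl4 at 1.78 to 2.89 CPM unlasered and 2.18 to 13.4 CPM lasered. Angpt1, like Vegfa, reached 1 CPM in the 3 unlasered libraries only, so it entered the test through the group where it was high. Of 10 genes listed as angiogenesis inhibitors 9 were tested, and in limma 0 were higher and 1 was lower. That gene was Chrdl1 (chrX:143285674-143394262, minus strand, protein-coding), which encodes a secreted antagonist of bone morphogenetic proteins. Its effect on vessel growth was not tested, and its place in this list does not show that it inhibits vessels. Chrdl1 was at 1.96, 1.20 and 1.55 CPM unlasered and at 0.272, 0.111, 0.0218 and 0.108 CPM lasered, where lasered library 3 had 1 read. The groups did not overlap, and Chrdl1 fell by 1.18 on the log2(CPM + 1) scale (SE 0.19, adjusted p = 0.0130 in limma). Like Vegfa, it reached 1 CPM in the unlasered libraries only. With the tested genes held fixed, its adjusted p in limma was 0.0503 without lasered library 2.

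Markers of infiltrating monocytes, led by F13a1 over all 7 libraries and by Ccr2 in the lasered ones, are given beside the whole set because monocytes also carry growth factors to lesions. They summed to 45.9 to 115 CPM unlasered, and in lasered libraries 1 to 4 to 205, 241, 67.4 and 27.5 CPM (8 genes, exact permutation test, p = 0.514; 0 of 6 tested genes passed in limma or edgeR, and 1 at an unadjusted p under 0.05 in limma). DESeq2 called 1 of them higher, Ccr2, at 5.63, 6.37 and 14.2 CPM unlasered and at 81.5, 128, 19.7 and 7.57 CPM lasered (adjusted p = 0.0374), and its groups overlapped. The Ly6C- gate would remove monocytes that carry Ly6C. The part of monocytes in these values was not tested.

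**Figure D5:**
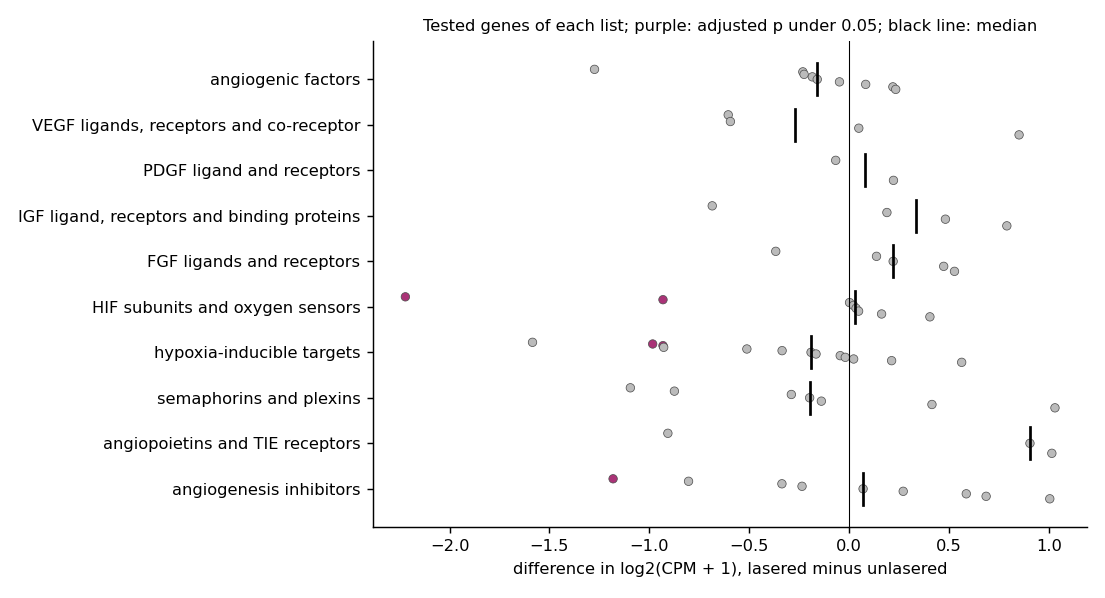
Difference in log2(CPM + 1), lasered minus unlasered (horizontal axis), for each tested gene of the angiogenic set and of the 9 pathway lists (rows); purple points have an adjusted p under 0.05 in limma and black lines are medians. The 4 purple genes lie below 0, and Egln3 appears in 2 rows, with the HIF machinery and with the hypoxia-inducible targets.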

How the data were processed

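RNA-seq values of 7 mouse libraries of sorted retinal microglia labelled Irf8 KO (3 unlasered, 4 lasered) were analysed, grouped by the sample labels. Per the study's methods and the submitters' processing notes, cDNA was made with a SMARTer low-input kit and Nextera XT, which do not mark strand, read quality was checked with FastQC, adapters and duplicates were removed with cutadapt and FastUniq, reads were mapped with bowtie2 to GRCm38 and counted with HTSeq per gene of annotation version 90. Tool versions and the strand setting are not given in the sources used here. The deposited values are headed TPM by the authors, but they are CPM. Within a library every value was a whole multiple of 1 step whatever the gene length (100% of values, tolerance 0.05 reads plus rounding of the table), and the recovered reads sum to 20427558 to 45919042 per library. The test set for normalised values was therefore used. Duplicates were removed without molecular identifiers, so reads are not independent molecules. Reads on overlapping genes were listed jointly for 4492 genes.

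The comparison of lasered with unlasered libraries used limma 3.58.1 (R 4.3.3, statmod 1.5.0). Values entered as log2(CPM + 1), the empirical Bayes step was robust and followed the mean-variance trend, tests were two-sided, and 17496 genes reaching 1 CPM in 3 or more libraries were fitted, with Benjamini-Hochberg adjustment and a threshold of 0.05. Marker sums were compared with exact permutation tests over 35 splits. Alternatives were edgeR 4.0.16 and DESeq2 1.42.0 on the recovered reads, a pseudocount of 0.1, no filter, a mean of at least 10 CPM, median-of-ratios scaling, a replicate block and each library left out. Alternatives chosen after seeing the data held the tested genes fixed when a library was left out, and summed Hif1a with Gm15283 and Fgf2 with Nudt6. Lengths and coordinates came from GENCODE M21 (GRCm38), and promoters from RefSeq (GRCm38.p6).

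The members and lists were chosen with earlier results of these data known. Named were all members, the receptors Flt1, Kdr, Pdgfra, Pdgfrb, Igf1r and Fgfr1, the HIF genes Epas1, Arnt and Egln1, every listed pathway gene with an adjusted p under 0.05, and the highest gene of each marker list over all 7 libraries, except that of the rod list, which is not reported here. Irf8, genes whose exons overlap a member, markers at the floor, and Gfap, Egfl7, Slc6a9, Ccr2, Fgfr2, Angpt1 and Angptl4 were named after values were seen. So were Col1a1, Col1a2 and Dcn. On data simulated from these libraries for this comparison, limma recovered 27.8% of 194 genes changed by a factor of 2 (17151 genes), 88.0% of 191 changed by 4 (17147 genes) and 96.9% of 192 changed by 8 (17144 genes), and called 1 gene of 17183 with no change. Python 3.11.15 was used with numpy 2.4.6, pandas 2.3.3, scipy 1.17.1 and matplotlib 3.10.9. Wild type libraries were not analysed here, and amino acid sequences were not used.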

Additional observations from a re-analysis of the deposited data

Results flagged for a closer look

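Of 21 levels of named genes checked in the 4 lasered libraries, 4 had a single library far from the others by Dixon's criterion, which chance meets in about 1 in 20 groups. Pgf was at 0.178 CPM in lasered library 2, from 8 reads, with the next library at 0.0227 CPM. Pdgfa was at 34.6 CPM in lasered library 2, with the next library at 27.5 CPM. Kdr was at 6.55 CPM in lasered library 3, with the next library at 2.51 CPM. Egln1 was at 77.0 CPM in lasered library 3, with the next library at 62.9 CPM.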

How the results depend on the processing

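Vegfa kept its direction in all 17 alternatives, with limma, edgeR and DESeq2 adjusted p from 0.00416 to 0.148. Its groups did not overlap, so leaving out a library could not turn its sign, and the 17 are not separate checks. Among the members Vegfa alone passed, in edgeR (1 of 9), in DESeq2 (1) and with the tested genes held fixed without unlasered library 1 (1). Without an unlasered library it left the filtered set and was not fitted. With every other alternative 0 members passed, leaving each library out included (0 to 0; 0 to 1 with fixed genes). All genes passing numbered 1213, and 2318 in DESeq2, 626 at a mean of at least 10 CPM, 385 without a filter and 264 to 1248 without single libraries. Median-of-ratios scaling gave 1439 (935 higher, 504 lower, against 676 and 537), with the median of all genes moving by 0.0732. The mean filter gave 466 higher and 160 lower. Pathway genes passing numbered 4 (0 higher, 4 lower), 4 in edgeR (0 and 4) and 6 in DESeq2 (1 and 5). There was 1 at a mean of at least 10 CPM, with 2 without a filter and 1 to 5 without single libraries, or 0 to 6 with fixed genes, the fewest without lasered library 2. Egln3 lost its call without lasered library 1, 2 or 3, without unlasered library 2 (adjusted p 0.0614 to 0.0711) and without a filter (0.0615); P4ha2 without lasered library 1, 2 or 3 (0.0643 to 0.0714) and without a filter (0.0603); Epas1 without lasered library 2 (0.0557); and Chrdl1 without it in the fixed gene set (0.0503). The cause was not tested. Deviations of same-numbered libraries correlated at -0.183, -0.126 and -0.0234, and those of other pairs at -0.109 to 0.205. They gave no sign that the numbers pair the libraries. They cannot settle it, as deviations were taken from the mean of each small group. With the replicate block, in which lasered library 4 has no counterpart, 3 genes, 0 pathway genes and 0 members passed. Signs turned, with an adjusted p of 0.685 or more wherever they did, for Pdgfb (0.0303 with median-of-ratios scaling, -0.38 to 0.17 without single libraries), Pdgfc (0.19 with the replicate block, -0.38 to 0.19), Pdgfa (-0.0311 to 0.181), Hif1a (-0.505 to 0.0115), Flt1 (-0.0573 in DESeq2 and -0.0571 in edgeR, -0.18 to 0.50), Pdgfrb (-0.24 to 0.0562), Fgfr1 (-0.0352 with a pseudocount of 0.1, -0.17 to 0.49), Arnt (-0.0034 in DESeq2 and -0.0019 in edgeR, -0.17 to 0.16) and Egln1 (-0.0585 to 0.0542). The summed neuron markers differed by 3.61 CPM and by -0.12 as a mean of log2(CPM + 1). Levels kept within 1 SD when medians replaced means. Few reads stand behind Pgf (0 to 8), lasered Chrdl1 (1 to 12) and lasered Vegfa (9 to 37).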
